A study of Arabidopsis thaliana with 4 samples.

Results

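Intron retention events of over 110 and up to 250 bp were examined in 14-day-old Arabidopsis thaliana. They numbered 2096 of the 7389 retention events that have all coordinates, in a table of 14133 alternative splicing events. A retention event was taken when its flanking coordinates left an intron of the same length in both ecotypes and that length was above 110 bp and at most 250 bp. No level and no q value entered the choice. The introns lay in 1528 genes, of which 1139 held 1 of them and 115 held 3 or more. Their median length was 149 bp, with quartiles at 125 and 188 bp, and 1255 (59.9%) had the exact coordinates of an annotated intron. Just inside the lower limit, 43 introns had a median listed level of 66.7% in Col, and just outside it the 43 introns of 110 bp had 62.2%. At the upper limit the 6 introns of 250 bp had 38.9%, and the 6 that were 1 bp longer had 56.3%.

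The groups were the ecotypes Columbia (Col), the source of the reference genome, and Landsberg erecta (Ler), natural strains with different genome sequences, with 2 samples labelled for each and no treatment. All plants grew on Murashige and Skoog plates with 1% sucrose at 22 °C, in days of 8 h light and 16 h dark. The labels give the first leaf as the source but shoots in the extraction text, and do not say whether the samples came from separate plantings. The authors deposited 1 level per ecotype for each event, so there is no spread between samples, the depth is unknown, and tissue markers could not be checked in a table without expression levels.

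Intron retention is the form of alternative splicing in which an intron stays in the mature, polyadenylated transcript, and it is the most frequent form in plants. A retained intron in a coding region often brings a stop codon into the reading frame, and such transcripts can be degraded by nonsense-mediated decay or held in the nucleus. Some retained introns instead keep the frame open and lengthen the protein, and these coding introns are known as exitrons. The spliceosome reads a donor at the start of the intron, nearly always GT, and an acceptor at its end, nearly always AG, and a minor spliceosome with U12 snRNA reads a long conserved donor that may begin with AT.

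The sequences of 11 of these introns show what the levels refer to. They are the Col reference sequence (TAIR10, from RefSeq TAIR10.1), 5′ to 3′ on the strand of the gene. Capitals mark the first and last 2 bases of the intron and, where there is one, the first stop codon in the frame of the preceding coding segment. The exception is AT2G39280, where the inner capitals mark a nearer acceptor. Ler sequence was not used here. The first 4 belong to marked introns with a higher level in Col.
AT1G27520, 143 bp, chr1:9560334-9560476, plus strand: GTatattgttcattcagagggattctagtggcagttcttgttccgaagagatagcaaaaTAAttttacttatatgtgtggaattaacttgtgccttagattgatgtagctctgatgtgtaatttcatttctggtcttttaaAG
AT2G25050, 114 bp, chr2:10654469-10654582, minus strand: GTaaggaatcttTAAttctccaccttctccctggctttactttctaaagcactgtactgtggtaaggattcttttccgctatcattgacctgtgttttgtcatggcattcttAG
AT2G25050, 151 bp, chr2:10654251-10654401, minus strand: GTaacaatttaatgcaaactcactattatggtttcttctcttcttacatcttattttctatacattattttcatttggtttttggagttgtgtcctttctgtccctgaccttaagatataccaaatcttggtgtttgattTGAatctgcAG
AT2G39280, 223 bp with a 208 bp intron inside it, chr2:16403206-16403428, minus strand: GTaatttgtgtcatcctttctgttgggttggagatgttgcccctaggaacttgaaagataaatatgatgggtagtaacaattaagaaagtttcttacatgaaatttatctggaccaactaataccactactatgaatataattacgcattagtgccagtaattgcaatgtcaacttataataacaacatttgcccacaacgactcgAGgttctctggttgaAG

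Marked introns with a higher level in Ler are shown by a trio of annotated introns in coding regions, of which the last starts with GC in place of GT.
Tic32-IVa, 147 bp, chr4:12230410-12230556, plus strand: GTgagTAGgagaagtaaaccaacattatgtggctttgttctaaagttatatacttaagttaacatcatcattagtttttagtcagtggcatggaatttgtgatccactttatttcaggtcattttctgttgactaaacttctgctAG
DI19, 115 bp, chr1:21073794-21073908, minus strand: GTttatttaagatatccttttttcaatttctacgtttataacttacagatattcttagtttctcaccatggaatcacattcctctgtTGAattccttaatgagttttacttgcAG
NRAMP6, 119 bp, chr1:5483957-5484075, minus strand: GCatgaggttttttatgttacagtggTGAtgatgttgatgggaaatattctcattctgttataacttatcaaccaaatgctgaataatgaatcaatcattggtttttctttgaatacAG

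Introns that can be read through without a stop codon and whose length is a multiple of 3 are shown by a trio at opposite ends of the range of levels, nearly always retained in SAC52 and seldom in RTE1 and AT5G55550. The last sequence, of AT3G06760, has the AT-AC ends and the long conserved start of a U12-type intron.
SAC52, 171 bp, chr1:4888767-4888937, plus strand: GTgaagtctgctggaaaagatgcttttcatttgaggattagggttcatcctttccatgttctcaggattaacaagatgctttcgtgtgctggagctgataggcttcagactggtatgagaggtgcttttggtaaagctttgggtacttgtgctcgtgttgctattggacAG
RTE1, 114 bp, chr2:11106161-11106274, minus strand: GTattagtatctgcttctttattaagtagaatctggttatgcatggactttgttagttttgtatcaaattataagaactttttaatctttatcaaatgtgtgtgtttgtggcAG
AT5G55550, 141 bp, chr5:22503296-22503436, minus strand: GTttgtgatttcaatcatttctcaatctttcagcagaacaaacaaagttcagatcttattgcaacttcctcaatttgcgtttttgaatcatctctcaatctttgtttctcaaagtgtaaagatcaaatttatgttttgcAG
AT3G06760, 137 bp, chr3:2133764-2133900, plus strand: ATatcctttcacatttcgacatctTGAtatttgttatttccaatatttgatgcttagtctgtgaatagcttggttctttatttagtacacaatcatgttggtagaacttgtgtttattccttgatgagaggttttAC

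The listed retention level is the authors' inclusion level multiplied to percent. The median over the 2096 introns was 56.7% in Col (95% interval of its binomial ranks 53.5 to 59.7%) and 55.9% in Ler (52.6 to 59.6%). Over all retention events it was 48.7% in each ecotype. Such intervals, and the Wilson intervals below, cover counting of events only, and events of 1 gene are not independent. Among events of equal length, the median in Col was 38.8% for the 1415 introns up to 85 bp (35.1 to 42.4%), 47.3% for the 1818 of 86 to 110 bp (42.9 to 52.1%) and 50.7% for the 1109 over 250 bp (47.5 to 53.8%). The interval of the introns in the window overlapped none of those of the shorter windows and touched that of the longest.

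The medians were lower and closer together among introns that are annotated and share no end with another event. There the median in Col was 19.5% for 697 introns of over 110 and up to 250 bp (18 to 21.1%), 19.4% for 662 up to 85 bp (17.8 to 21.3%), 17.8% for 799 of 86 to 110 bp (16.7 to 19.1%) and 16.2% for 263 over 250 bp (15.2 to 18.5%). The interval of the window overlapped each of the others, that of the longest introns by a small margin. Within the window the level did not follow length, with a Spearman correlation of −0.03 over the 2096 introns. Across the introns, which share libraries and are not replicates, Pearson's r between Col and Ler was 0.922 and Spearman's rho was 0.911. Col and Ler differed by a median of 4.79 percentage points in either direction, against 5.16 over all retention events. Over the retention events of equal length the median difference was 4.78 points, near that of the window. The ecotypes differed by at most 5 points in 1084 introns (51.7%) and by over 20 points in 191 (9.11%). In both ecotypes the level exceeded 90% for 387 introns (18.5%), and it was under 10% in both for 48 (2.29%).

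**Figure D1:**
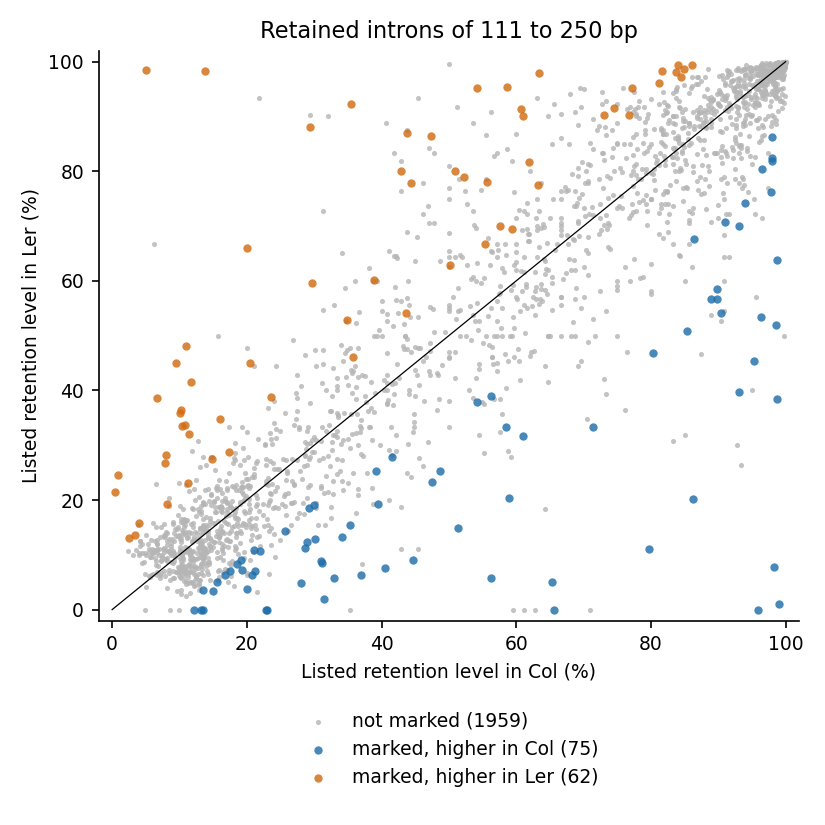
Listed retention level in Ler (vertical axis, percent) against Col (horizontal axis, percent) for the 2096 introns of over 110 and up to 250 bp, 1 point each. The 75 introns marked higher in Col lie below the line of equal levels, the 62 marked higher in Ler lie above it, and most unmarked introns lie close to it.

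What the annotation says of an intron separated the levels far more than its length did. For 676 introns of which the reference lists only the spliced form, the median was 18.4% in Col (16.9 to 20%) and 17.9% in Ler. For 579 with both forms listed it was 42.2% in Col (37.0 to 46.2%) and 43.8% in Ler. For 589 with neither form it was 83.3% in both ecotypes, and for 252 listed as retained alone it was 94.7% in Col (93.7 to 96.3%) and 93.1% in Ler. Introns of these classes also differed in the letters at their acceptors. The acceptor score sums, over 15 intron and 3 exon positions, the log2 of each letter's frequency in 136048 annotated introns over an even frequency. Its median was 7.50 and 7.70 where the spliced form is annotated alone or with the retained form, 6.20 where neither is and 3.75 for the retained form alone. The matching donor scores were 6.61, 6.44, 6.35 and 5.20.

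Where an intron shares an end with another event, other junctions over the same interval are listed as well. Whether these account for its level was not tested. Of the 2096 introns 839 (40.0%) shared an end with another retention event, and their median in Col was 63.9% (61.1 to 69.0%). A further 297 shared an end only with alternative sites or skipped exons (64.7%, 60.7 to 69.6%). The 960 that shared no end had a median of 34.7% (30.1 to 40.5%).

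**Figure D2:**
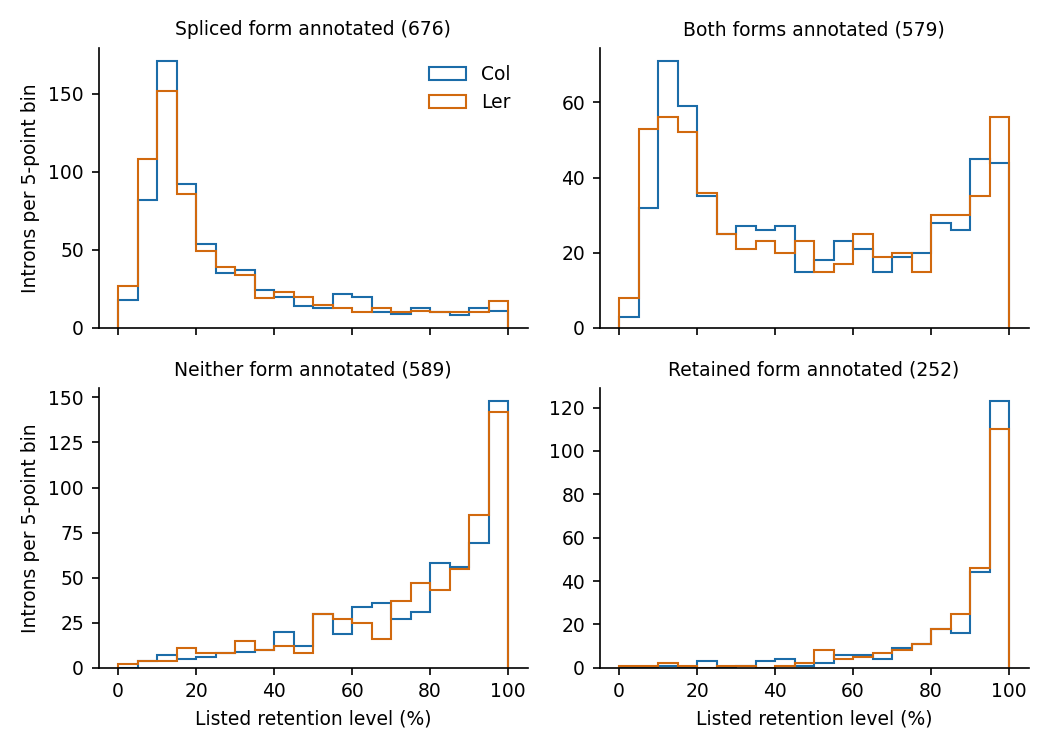
Number of introns (vertical axes) in each 5-point bin of listed retention level (horizontal axes, percent), in Col (blue) and Ler (orange), for the 4 annotation classes. Levels gather at 5 to 20% for introns annotated as spliced alone and above 90% for those annotated as retained alone. Those annotated in neither form are spread more widely, with 36.5% of them above 90% in Col. The outlines of the ecotypes nearly coincide.

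The authors marked 137 of the 2096 introns as different between Col and Ler (6.54%, Wilson interval 5.56 to 7.68%), in 130 genes. Of all 7399 retention events they marked 8.38%, with 4.32% higher in Col and 4.05% higher in Ler, and of those of equal length 6.49%, so the share among the introns of over 110 and up to 250 bp was near that background. Shares over all retention events, here and below, include 951 events of unequal length in Col and Ler, of which 21.1% were marked. A mark always came with a q value under 0.05 and a difference above 10 points in the authors' deposited table. Of the 137, 75 were higher in Col and 62 in Ler, a share of 54.7% (46.4 to 62.8%), while 967 of 1956 unmarked introns with unequal levels were higher in Col (49.4%). The median marked difference was 20.9 points, the smallest 10.04 and the largest 98.1. The difference was over 50 points in 27 introns, and 14 of these were marked.

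With q under 0.05 and at least 10 points the count was 152, since 15 further introns met both without a mark, and the rate over all retention events under that rule was 9.27%. With q under 0.05 alone it was 221 (10.5%), against 13.3% of all retention events. With a mark and at least 20 points it was 74 (3.53%), against 4.57%. For 412 introns the authors' deposited table gives q = 1.

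Of the marked introns with the largest differences higher in Col, AT1G27520, AT2G39280 and AT2G25050 had annotated coding introns with the usual GT-AG ends, as printed above. AT1G27520, a glycosyl hydrolase of family 47, which trims mannose from N-glycans, had its 143 bp intron at 79.7% in Col against 11.1% in Ler (q = 6.09e-13 in the authors' deposited table). The overlapping 175 bp interval with the same donor, which is not annotated, was listed at 96.5% in Col against 71.4% in Ler and had no mark. AT2G25050 encodes a formin, a protein that nucleates actin filaments. Its 114 bp intron stood at 65.4% in Col against 5% in Ler, and the next intron of 151 bp at 56.2% and 5.77% (q = 4.14e-10 and 2.37e-09 in the authors' deposited table). Neither shares an end with another event. A further interval of AT2G25050, 147 bp across the end of the coding region with CT-AC ends, went the other way, with 83.7% in Col against 98% in Ler.

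In AT2G39280, a protein with a Rab GTPase-activating domain, the 208 bp intron was listed at 65.6% in Col against 0 in Ler. The 223 bp intron with the same donor was at 61.1% and 0. Only the first carries a mark (q = 5.06e-15 and 0.715 in the authors' deposited table). Use of the nearer acceptor over the farther one was listed at 48.8% in Col against 96.7% in Ler. The printed sequence shows both acceptors: one AG at base 208 of the 223 bp intron and another at its end.

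AT2G17695, an outer envelope protein, had its shortest intron in the window at 98.7% in Col against 38.4% in Ler, while the 145 bp intron with the same donor was at 96.6% and 99.4% without a mark. IREG1, a ferroportin-type iron exporter, had a 145 bp intron before the start codon at 93.2% in Col against 39.7% in Ler, and there too the longer intron of 237 bp was high in both ecotypes, at 86.7% and 95.9%. In both genes use of the nearer acceptor, that of the shorter intron, was listed higher in Ler: 34.8% in Col against 99.7% in AT2G17695, which is marked, and 23.5% against 93.9% in IREG1, which is not. These levels and those of retention refer to the same acceptor. CBSX3, a protein with cystathionine beta-synthase domains, had a 125 bp interval with AT-AC ends, of which neither form is annotated, at 86.2% in Col against 20.1% in Ler. It shares no end with another event.

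Higher in Ler, the largest difference was that of JMJ14, a histone demethylase that removes methyl groups from lysine 4 of histone H3 and represses flowering. Its 138 bp intron before the start codon (chr4:11008819-11008956) was listed at 5.08% in Col against 98.5% in Ler (q = 3.63e-40 in the authors' deposited table). Only the spliced form is annotated, and no other event shares an end with it. Tic32-IVa, a short-chain dehydrogenase linked to protein import into chloroplasts, had its 147 bp intron at 29.3% in Col against 88.1% in Ler, and use of a nearer acceptor inside that intron was marked in the same direction (73.8% and 98.4%). DI19, a zinc finger protein induced by drought, had its 115 bp intron at 54.2% and 95.2% and shares no end with another event. NRAMP6, a metal ion transporter, had its 119 bp GC-AG intron at 10.9% and 48.1%, and the unannotated 112 bp interval inside it was at 46.2% and 72.2% without a mark.

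The other introns among the 10 largest marked differences higher in Ler were in AT4G18230, AT2G26810, AT5G26740, AT5G58950, TAP38 and AT3G06770. TAP38, the phosphatase that returns light-harvesting complex II from its phosphorylated state, had a 131 bp interval at 47.4% in Col against 86.4% in Ler, and its 3 other intervals in the window were high in both, from 86.1% to 88.0% in Col and 97.1% to 97.3% in Ler. AT5G26740, an organic solute transporter, had a 139 bp intron before the start codon at 20% and 66%, and the 79 bp intron inside it was marked in the same direction at 15.4% and 41.8%. AT2G26810, a methyltransferase, had a 129 bp intron before the start codon at 35.5% and 92.3%. AT5G58950, a protein kinase, stood at 43.8% and 87%, and AT3G06770, a pectin lyase-like protein, at 42.9% and 80%, and neither of these is annotated as an intron.

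AT4G18230, an ALG14-like protein of N-glycan assembly, appeared in both directions. Its 158 bp intron was at 13.7% in Col against 98.3% in Ler, while the 168 bp and 122 bp intervals with the same donor were at 95.2% and 45.5%, and at 93.1% and 70%. All 3 were marked. Use of the acceptor of the 158 bp intron over that of the 168 bp interval stood at 99.1% in Col and 0 in Ler, and use of the acceptor of the 122 bp interval over that of the 158 bp intron at 0.877% in Col against 95.2% in Ler. Retention and acceptor levels in AT4G18230 thus refer to the same sites. Of the 130 genes with a marked intron, 5 held several and 3 held both directions: AT4G18230, AT2G25050 and AT1G56300, a DnaJ-type chaperone with a 112 bp intron at 81.2% in Col against 96.1% in Ler and a 119 bp interval at 91.0% and 70.7%.

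**Figure D3:**
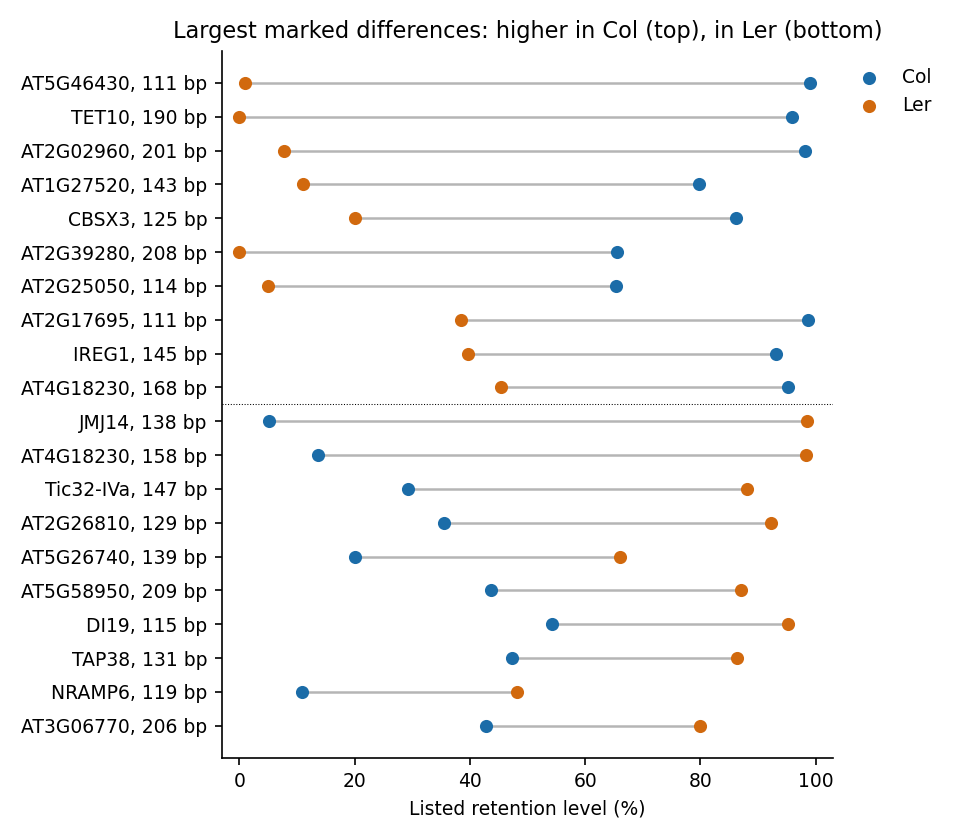
Listed retention level (horizontal axis, percent) in Col (blue) and Ler (orange) for the 10 marked introns of over 110 and up to 250 bp with the largest difference in each direction, named by gene and length, 1 line each. Above the dotted line Col is higher, from AT5G46430 at 99.1% against 0.996%, and below it Ler is higher, from JMJ14 at 5.08% against 98.5%.

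The 3 largest differences higher in Col were intervals whose ends, in the Col reference, are 1 letter from GT-AG. GC-AG ends, also 1 letter away, form a class of their own and are not counted with these. AT5G46430, a ribosomal protein L32e of the large subunit, had as its shortest an interval before the start codon at 99.1% in Col against 0.996% in Ler (q = 2.13e-134 in the authors' deposited table). TET10, a tetraspanin of the plasma membrane, had a 190 bp interval at 95.8% in Col while Ler was listed at 0, and AT2G02960, a RING/FYVE/PHD zinc finger protein, a 201 bp interval before the start codon at 98.2% and 7.69%. AT1G53780, a proteasome ATPase, had the fourth marked interval of this kind, of 210 bp and also upstream of the start codon, at 98.5% and 52%. Windows of 20 bases, 10 to each side of the junction, show the ends in the Col reference, with the 2 intron bases at the junction in capitals and, for comparison, the matching end of a longer intron that starts or ends at the same opposite site.
AT5G46430, acceptor of the shortest interval, chr5:18833403-18833422, plus strand: gattttgtTGaggaagagga
AT5G46430, acceptor of the 117 bp intron, chr5:18833409-18833428, plus strand: gttgaggaAGaggagtaaaa
TET10, donor of the 190 bp interval, chr1:23467221-23467240, minus strand: tgttgtcttgATaagctctc
TET10, donor of the 208 bp intron, chr1:23467239-23467258, minus strand: cttcaatgtgGTcctgtttg
AT2G02960, acceptor of the 201 bp interval, chr2:864037-864056, minus strand: cgttgaatAAtttggaggag
AT2G02960, acceptor of the 227 bp intron, chr2:864011-864030, minus strand: gaaatgatAGgtttattaac
AT1G53780, donor of the 210 bp interval, chr1:20077946-20077965, minus strand: ctttgcaaagGGttggctat

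In each of the first 3 genes a longer intron with AG or GT at the matching end is annotated in Col. In AT5G46430 the 117 bp intron was at 6.25% in Col against 66.7% in Ler, and use of the acceptor of the shortest interval over the other acceptors had levels of 0 in Col and of 99.2% and 99.5% in Ler. In AT2G02960 the 227 bp intron was at 84.2% and 92.9%, and use of the nearer acceptor, that of the shorter interval, over either other acceptor was at 0 in Col and at 95.8% in Ler. In TET10 the 208 bp and 132 bp introns were at 71.0% and 62.8% in Col, and both were listed at 0 in Ler without a mark. Use of the donor of the 190 bp interval over that of the 208 bp intron was at 0 in Col and at 95% in Ler. The high retention level in Col for these 3 intervals thus stands beside a junction with a level of 0 there, and does not by itself show that the interval was kept. Over the 10 introns with such ends, GC-AG left out, the median was 98.4% in Col (33.3 to 99.6%) and 34.3% in Ler. Of these, 8 were higher in Col, and all 4 marked were. Among all retention events 11 of 11 marked ones with such ends, again without GC-AG, were higher in Col. The class was chosen by the letters of the Col reference alone, and no matching class by Ler letters was formed. Its direction is therefore not independent of the choice and is no result about the ecotypes. The letters of these sites in Ler were not analysed here.

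The other end classes had similar medians in both ecotypes. The 1946 GT-AG introns had a median of 53.6% in Col against 53.0% in Ler, and the 55 with GC-AG ends 75.7% and 75.1%. CT-AC, the reverse complement of GT-AG, ended 68 intervals with medians of 88.5% and 90%. None of these equals an annotated intron of its gene and 46 lie inside an annotated exon. Of the 68, 61 were in genes within 500 bp of another gene, as were all but 294 of the 2096 introns. Whether reads of an opposite strand contributed was not tested, as the sources used here do not give strandedness.

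AT-AC ended 14 intervals with medians of 97.8% and 97.5%. Among the high ones were FNR2, a ferredoxin-NADP oxidoreductase (99.9% in both ecotypes), and FBP, a fructose-bisphosphatase (99.4% and 99.5%). A small group with the U12-type start ATATCCTT or GTATCCTT was lower. Its 9 introns had a median of 36.5% in Col (10.5 to 79.4%) and 22.0% in Ler, and none was marked (Wilson interval 0 to 29.9%), against 3 of 38 (7.89%) over all retention events with such a start. The 9 make up 0.429% of the introns, and 0.514% of all retention events have such a start. Among them AT3G06760, a drought-responsive family protein, was at 10.5% and 9.14%, and AT4G02200, of the same family, at 6.29% and 10.7%. Intervals whose ends repeat 8 or more bases numbered 15, had a median of 96.4% in Col against 92.9% in Ler, and held no mark (Wilson interval 0 to 20.4%, which includes the 6.54% of the whole window). SHM1, the serine hydroxymethyltransferase of photorespiration, is one of them, at 99.98% in both.

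Reading the transcript through the intron sharply split the introns that lie between annotated coding segments. Other introns of the coding span were not read in frame. Of the 906 introns that lie between annotated coding segments, 844 (93.2%) carried a stop codon in the frame of the preceding segment. The first stop began at a median of base 34 of the intron and within the first 60 bases in 612 of them. These introns had a median of 19.0% in Col (17.9 to 20.3%) and 18.8% in Ler, and 71 were marked (8.41%, 6.72 to 10.5%), 44 higher in Col and 27 in Ler. Of all 3018 retention events with an in-frame stop 305 were marked (10.1%), 156 higher in Col and 149 in Ler. The 28 that could be read through and whose length is a multiple of 3 had a median of 92.1% in Col (79.4 to 95.9%) and 93.3% in Ler, and none was marked (Wilson interval 0 to 12.1%). Of all 164 retention events of that kind 12 were marked, and their 7.32% lies inside that interval. The 34 without a stop whose length is not a multiple of 3, which shift the frame behind the intron, had 20.5% in Col (14.4 to 66.7%) and 19.5% in Ler. Outside the 906, the coding span held 172 introns annotated as retained alone. Their level in Col was high with either kind of length. The median was 92.6% for 110 whose length is not a multiple of 3 and 97.5% for 62 whose length is.

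The retained form is annotated for 25 of the 28 open introns and for 262 of the 844 with a stop. Within introns whose retained form is annotated, the median in Col was 92.7% for open ones and 24.1% for those with a stop. The open class was less extreme in the shorter windows, with 60.4% for 65 introns up to 85 bp (21.7 to 83.0%) and 31.2% for 57 of 86 to 110 bp (16.1 to 73.6%). Introns over 250 bp gave 2. The open introns were also richer in G and C, at a median of 40.4% against 34.0% for those with a stop.

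The open class fell into a high and a low group. In 16 of the 28 the level exceeded 90% in both ecotypes, and in 7 it was under 30% in both. SAC52, a ribosomal protein L10, had its 171 bp intron at 99.6% in Col against 99.8% in Ler. CCR1, also called GRP8, an RNA-binding protein rich in glycine that the clock regulates, had overlapping intervals of 192 and 129 bp at 99.6% and 95.9% in Col and at 99.6% and 95% in Ler. Others in the high group were MBD10, a methyl-CpG-binding domain protein (97.5% and 98.2%), ARASP, a chloroplast membrane protease (98.1% and 97.8%), and HMGB1, a chromatin protein of the high mobility group (95.4% and 95.9%). FPA, an RNA-binding protein that promotes flowering, was at 85.7% and 84.7%. In the low group, RTE1, which regulates ethylene receptors, was at 16.2% and 18.1%, and AT5G55550, an RNA-binding protein, at 8.54% and 10.3%. The largest difference between the ecotypes in the class was 15.4 points.

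**Figure D4:**
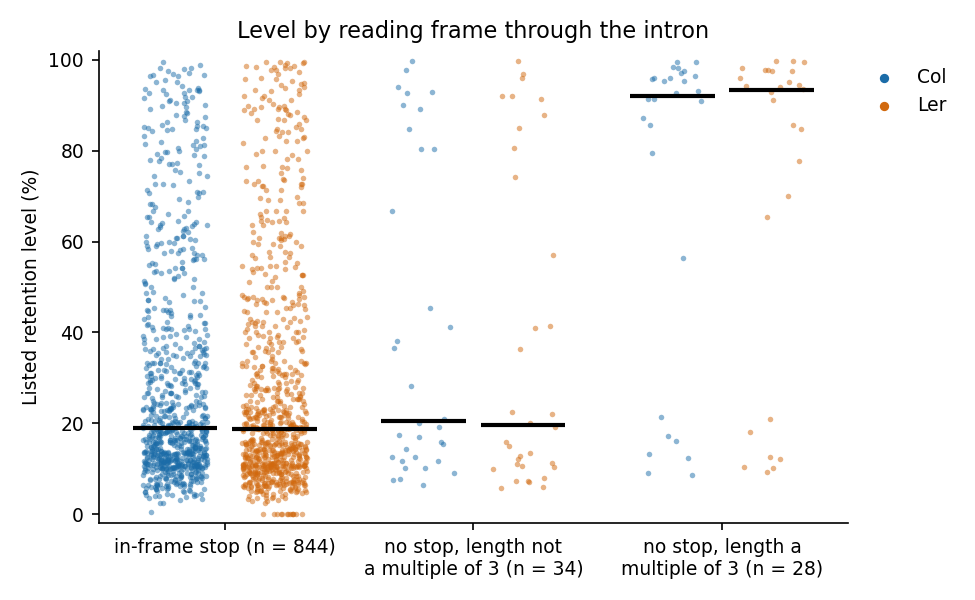
Listed retention level (vertical axis, percent) in Col (blue) and Ler (orange) of introns between coding segments, by what the reading frame meets inside them, 1 point per intron with the median as a bar. The medians are 19.0% and 18.8% for 844 introns with a stop and 92.1% and 93.3% for 28 open introns of a length that is a multiple of 3, where few points lie between 30 and 70%.

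Location in the gene went with the share of marks. On the 5' UTR side, meaning before the start codon, 28 of 253 introns were marked (11.1%, 7.77 to 15.5%), against 11.9% of all retention events there. In the coding span 95 of 1673 were marked (5.68%, 4.67 to 6.89%), against 8.00% of all retention events there, which include those of unequal length. Of the 95, 57 were higher in Col, against 256 of 476 marked over all retention events there. On the 3' UTR side 9 of 119 were marked (7.56%, 4.03 to 13.8%), against 6.54%, and 8 of these 9 were higher in Ler. Across an edge of the coding region, at the start or the stop codon, 4 of 47 were marked (8.51%, 3.36 to 19.9%), against 8.93% of all retention events there.

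The 8 introns on the 3' UTR side that were marked higher in Ler were each in a different gene. GSK1, a shaggy-like kinase of brassinosteroid signalling, was at 86.1% in Col against 99.4% in Ler. UBA2A, an RNA-binding protein, was at 74.6% and 91.6%, and HAC4, a histone acetyltransferase, at 61.0% and 90%. EIP9, a DnaJ-domain protein, was at 58.7% and 95.5%, and AT4G16680, a nucleoside triphosphate hydrolase, at 44.4% and 77.8%. AT5G56850, AT1G80030 and AT5G61220 had differences between 11 and 14 points. The exception, AT3G45443, was at 98.7% in Col against 63.8% in Ler. Unmarked introns on that side were higher in Ler in 67 of 110 cases, and the median of Col minus Ler was −1.09 points there, against −0.004 over all 2096. Among the remaining retention events on that side 11 of 18 marked were higher in Ler. This class was noticed in these data, and the direction was not tested.

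**Figure D5:**
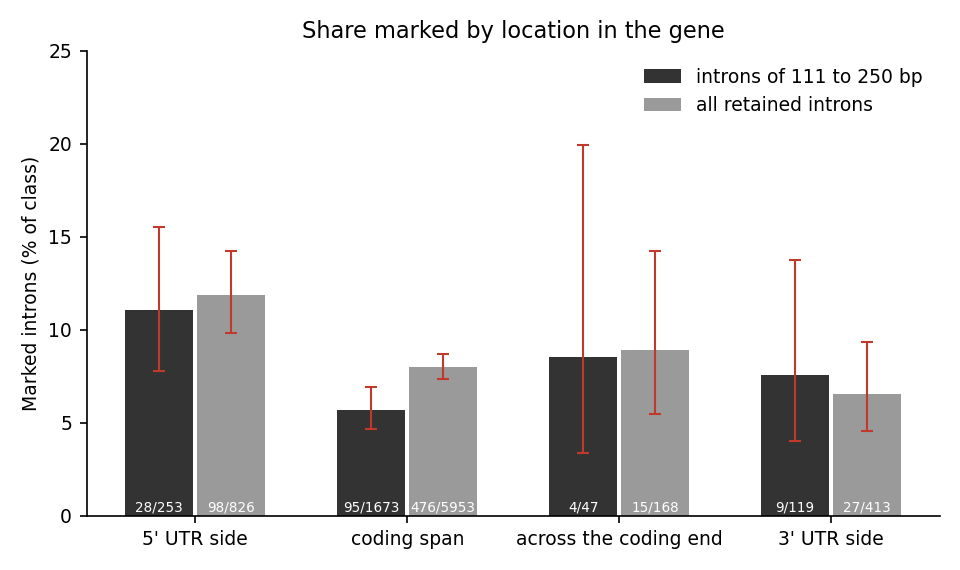
Share of introns marked by the authors (vertical axis, percent of the class) by location in the gene, for introns of over 110 and up to 250 bp (black) and all retention events (grey), with 95% Wilson intervals in red and counts in the bars. The 5' UTR side reaches 11.1% and the coding span 5.68% among the introns of over 110 and up to 250 bp.

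Among annotated introns, those at the ends of the gene had higher levels than those inside it. The first intron had a median of 42.4% in Col (318 introns, 34.4 to 47.2%), the last 33.3% (294, 25 to 37.6%), the only intron of a gene 31.2% (79) and internal introns 18.8% (564, 17.5 to 20.3%). The introns were poorer in G and C than the 50 exon bases on each side, with medians of 34.7% and 43.0%, and this held in 1938 of the 2096 (92.5%). Across the introns the level in Col had a Spearman correlation of 0.253 with G and C content, −0.275 with the acceptor score and −0.117 with the donor score. Among the 697 annotated introns that share no end the same values were 0.205, −0.153 and −0.04. All are weak and describe introns that share libraries and base composition.

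A level listed at 0 occurred in Ler alone for 15 introns and in Col for none. Their levels in Col ran from 4.86% to 95.8% with a median of 22.9%, and 7 carry a mark, while for 4 the authors' deposited table gives q = 1. PDIL1-4, a protein disulfide isomerase of the endoplasmic reticulum, had a 143 bp intron at 22.9% in Col, AT3G62370, a heme-binding protein, a 171 bp intron at 22.8%, and SCA3, a plastid RNA polymerase, a 246 bp intron at 13.5%, all listed at 0 in Ler and marked. CYP81F2, a cytochrome P450 of indole glucosinolate synthesis, stood at 9.86% in Col against 0 in Ler without a mark. An exact 0 can be a failed estimate, and the reads behind these levels are unknown.

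No list of genes by function held more than 7 marked introns, and the shares marked lay on both sides of that of the window. The lists were taken by gene identifier or by words of the annotated product. Such words miss some genes and take in others, so that the counts describe the word lists. For comparison, 6.54% of all introns in the window were marked. The shares by list ran from 0 for SR proteins and flowering time genes to 16.7% for immune receptors, which had 1 marked of 6. None of 14 introns in 11 genes for SR proteins, which choose splice sites, was marked, with medians of 50.2% in Col against 53.9% in Ler. The largest difference among them was in RSZ22a (36.2% and 52.3%). None of the 5 introns in the 17 flowering time genes listed by identifier was marked. JMJ14 is not among those 17. Of 16 in clock genes 1 was marked, the 143 bp interval of GRP7 at 63.2% in Col against 77.6% in Ler, of which neither form is annotated and which shares ends with 5 other events. The words for RNA-binding and splicing proteins gave 2 marked of 60, both higher in Col, among them AT1G06960 at 54.1% and 38.0%. Those words missed the RNA-binding proteins GRP7 and UBA2A, both marked higher in Ler, so the direction is that of the word list alone.

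Transcription factors and zinc finger proteins had 7 marked of 109, 3 higher in Col and 4 in Ler. WRKY70, which links salicylate and jasmonate defences, had its 186 bp intron at 10.4% in Col against 33.6% in Ler (q = 4.83e-24 in the authors' deposited table), and AT5G46710, of the PLATZ family, at 10.8% and 33.7%. Both are annotated introns of the coding span that share no end with another event. Immune receptors had 1 marked of 6, RPS2, the receptor that detects a Pseudomonas protease effector, with a 240 bp interval at 86.4% in Col against 67.6% in Ler. That interval lies across an edge of the coding region, and only its retained form is annotated. It has the CT-AC ends for which reads of an opposite strand were not tested. Photosynthesis and chlorophyll genes had 3 marked of 41, with high medians of 93.8% and 96.9%: TAP38 above, AT1G52220, a thylakoid curvature protein, at 89.8% and 58.5%, and PPD6, a thylakoid lumen protein, at 84.5% and 97.1%.

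By product words, the list of kinases and protein phosphatases had 5 marked of 119 (4.20%) and that of transport 5 of 65 (7.69%). The list of stress had 4 of 38 (10.5%), that of ribosomal proteins 2 of 15 (13.3%) and that of ubiquitin and proteasome 2 of 68 (2.94%). The proteasome ATPase AT1G53780 is counted under transport through the word ATPase as well as under proteasome, and the phosphatase TAP38 only under photosynthesis. NADK1, an NAD kinase, was at 16.8% in Col against 6.25% in Ler, and CKB1, the beta subunit of casein kinase II, at 19.2% and 8.99%. CNGC1, a cyclic nucleotide-gated channel, was at 35.3% and 15.4% before the start codon. In AT1G07830, a ribosomal protein of the L29 family, the 156 bp intron before the start codon was at 31.1% and 8.43% and shares no end with another event. UBC11, a ubiquitin-conjugating enzyme, had an unmarked interval of 218 bp at 85% and 31.8%.

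The largest differences without a mark include some with q under 0.05, and the rule behind the marks is not given. AT4G03200 had a 169 bp interval at 21.7% in Col against 93.3% in Ler (q = 6.43e-05 in the authors' deposited table) and shares ends with 9 events of other types. NAC2, a transcription factor of the NAC family, had a 115 bp interval at 92.9% and 30%. AT1G16180, a Serinc-domain protein, had one of 204 bp with TT-AG ends at 93.3% and 26.3%. Their q values were 6.22e-05 and 4.61e-04 in the authors' deposited table. Neither form of the last pair is annotated.

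At the extremes of the annotated introns, the highest levels were those of GSTF9, a glutathione S-transferase, at 99.7% in Col against 99.8% in Ler, followed by SAC52, CCR1, AT3G27770 and TBL9. The lowest were those of PRP40B, a pre-mRNA processing protein, at 4.86% in Col against 0 in Ler, and of AT1G18030, ZIFL1, CYP81F2 and AT5G66420, none above 10% in either ecotype. For PRP40B, AT1G18030 and CYP81F2 the low mean includes a level listed at 0 in Ler, which can be a failed estimate. AT1G52510, an alpha/beta-hydrolase, held the most intervals in the window, 8, with levels in Col from 41.8% to 95.5%. None of the 8 equals an annotated intron. Both extremes have the CT-AC ends for which reads of an opposite strand were not tested. Of the 8 only a 163 bp interval was marked, at 84.0% in Col against 99.4% in Ler. The marked introns with mean levels nearest an even split included AT5G14550, a glycosyltransferase, at 56.2% and 39.1%, and AT3G61210, a methyltransferase, at 43.7% and 54.2%.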

How the data were processed

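Polyadenylated RNA of 4 samples, 2 per ecotype, was sequenced per the labels. The submitters' processing notes name TopHat and the build TAIR10 and list no versions. Inclusion levels are a fraction from 0 to 1, deposited by the authors once per ecotype, per the file headers. The sources used here do not give how samples were combined, nor how levels and marks were set. The q value and the direction mark are the authors', per the file headers.

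Levels were multiplied to percent. The planned count test did not apply to pooled fractions, so marks were counted, as the same design provided for. Coordinates were read against the RefSeq copy of TAIR10, in which 1525 of 1528 genes matched. Annotation, location, reading frame, ends and splice-site scores came from it, with Python 3.11.15 and pandas 2.3.3. Intervals are 95% Wilson or binomial-rank intervals. They were tested on simulated data with independent introns, so the test does not cover the dependence between introns of a gene. No p-values were computed.

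The introns and gene lists were chosen with earlier results of these data known. Named introns are the 10 largest marked differences per direction, the 5 largest unmarked, 5 marked per direction nearest an even split, the 5 highest and 5 lowest annotated, the gene with the most introns and up to 4 per list. Those named for their end letters, reading frame, a level of 0, the 3' UTR side, or as neighbours of a named intron were chosen after their values were seen. The 10 alternatives are given in the closing section.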

Additional observations from a re-analysis of the deposited data

How the results depend on the processing

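No paired analysis was possible because the table holds 1 pooled value per ecotype, and for the same reason fits that leave out a replicate or add a replicate block were not run. Over 10 alternatives, 53 of 75 recomputed values stayed within their limits and 22 moved. The 137 marked introns (6.54%) became 221 (10.5%) with q under 0.05 alone, 74 (3.53%) with at least 20 points, and 211 (8.78%) with any length in Ler. They became 76 without introns that share an end with another type of event, and 21 in the 294 introns of genes over 500 bp from another gene. In these smaller sets the shares marked, 6.95% and 7.14%, stayed within their limits. Annotated introns alone had 8.21% marked. The share higher in Col, 54.7%, was 38.1% away from other genes. Median levels of 56.7% in Col and 55.9% in Ler became 25.9% and 25% for annotated introns, 64.2% and 63.1% away from other genes, and 39.8% and 40.0% without shared ends. The median absolute difference of 4.79 points was 4.36 without shared ends and 5.15 with any length. For introns with an in-frame stop the median in Col of 19.0% was 16.1% without shared ends. The 8 introns on the 3' UTR side marked higher in Ler became 14 with q under 0.05 alone, 3 with at least 20 points and 1 away from other genes. Fewer introns enter several of these sets, and no other cause was tested. The alternatives for the reading-frame classes and the 3' UTR side were chosen after the values were seen. The depth behind every level is unknown.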
